A study of Mus musculus with 45 samples.

Results

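The genes described here encode the line of signalling from the insulin receptor to PI3K and the Foxo transcription factors. They are 9 of the 15897 genes in the deposited table, named by symbol and matched to their Ensembl identifiers: the receptors Insr and Igf1r, the adaptors Irs1 and Irs2, the PI3K subunits Pik3r1, Pik3r2 and Pik3ca, and the transcription factors Foxo1 and Foxo3. All 9 were present in the table. The values come from RNA sequencing of the hippocampus of 45 female C57Bl/6J mice in 8 groups, 1 for each combination of 4 genotypes and 2 diets. AwTw mice carried neither transgene. A+Tw mice carried the APPswe and PS1dE9 transgenes under the PrP promoter, AwT+ mice carried tau with the P301L mutation under the CaMKII promoter, and A+T+ mice carried all of these. From the age of 7 months until sacrifice at 13 months each mouse ate either a typical Western diet (TWD), with 21% fat, 0.15% cholesterol and 35% sucrose, or a standard diet (STD), with 5% fat and 0% cholesterol. Each TWD group held 6 mice, and the STD groups held 6 (AwTw), 6 (AwT+), 5 (A+Tw) and 4 (A+T+).

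Insulin and the insulin-like growth factors bind receptor tyrosine kinases, which phosphorylate Irs adaptor proteins. The adaptors recruit PI3K, made of a regulatory and a catalytic subunit, whose lipid product brings Akt to the membrane, and Akt phosphorylates Foxo proteins so that they leave the nucleus. In brain this pathway is known for its part in neuronal survival, energy use and feeding-related signals, and Foxo factors can in turn raise the transcription of Insr and Irs2 in several tissues.

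The values are on the log2-like scale of a variance-stabilizing transformation (VST) and are given below as expression values, so a difference between 2 values is a difference on the log2 scale. The labels assign 20 mice to batch 0 (8 on STD and 12 on TWD) and 25 mice to batch 1 (13 on STD and 12 on TWD), and in the deposited values the mean of each gene is the same in both batches. The mice least like the others were A+T+/TWD replicate 1 and AwTw/TWD replicate 3, both in batch 1, with median correlations to the other mice of 0.941 and 0.944, and the diet comparison of the 9 genes is given also without these 2 mice. Markers of the hippocampus were present, with mean expression values from 8.91 to 11.51 over 7 genes. Choroid plexus markers differed widely between mice, with a summed log2 level from 11.64 to 17.44 on STD and from 11.24 to 18.17 on TWD. The deposited values carry no counts, so the depth of each mouse is unknown, and errors reflect how far the mice spread.

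The genes lie on 6 chromosomes (GRCm38). The receptor gene Insr (ENSMUSG00000005534) is at chr8:3122061-3279617 on the minus strand and Igf1r (ENSMUSG00000005533) is at chr7:67952827-68233668 on the plus strand. The adaptor gene Irs1 (ENSMUSG00000055980) is at chr1:82233101-82291416 and Irs2 (ENSMUSG00000038894) is at chr8:10984681-11008458, both on the minus strand. Of the PI3K genes, Pik3r1 (ENSMUSG00000041417) is at chr13:101680563-101768217 and Pik3r2 (ENSMUSG00000031834) is at chr8:70768176-70776713, both on the minus strand, and Pik3ca (ENSMUSG00000027665) is at chr3:32397671-32468486 on the plus strand. Foxo1 (ENSMUSG00000044167) is at chr3:52268336-52353221 on the plus strand and Foxo3 (ENSMUSG00000048756) is at chr10:42181841-42276755 on the minus strand. Their transcripts are long: the longest transcript of Igf1r has 11409 bases, that of Insr 9355 and that of Irs1 9144, and the shortest of the 9 is that of Pik3r2, with 3165 bases.

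On the log2 scale per kilobase of the longest transcript, Pik3r2 had the highest level at 8.65. It was followed by Irs2 at 7.31, Pik3r1 at 7.08 and Foxo3 at 6.99, whose neighbours in this order were closer than the SD between mice of one of the pair. Foxo1 at 6.12, Pik3ca at 5.90, Igf1r at 5.88 and Insr at 5.63 came next, again with gaps smaller than the SD of a neighbour, and Irs1 was lowest at 4.64. Of the paired genes, the level per length was thus higher for Pik3r2 than for Pik3r1, and higher for Irs2 than for Irs1.

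RefSeq promoter windows (GRCm38.p6) were found for 8 of the 9 genes, with 2 windows for Pik3r1. The 250 bases before the start are shown for the genes other than Insr that passed the test for diet, because they moved in opposite directions. Capitals mark the Sp1 core, GGGCGG on either strand (CCGCCC on the other). The windows are chr1:82291440-82291689 for Irs1, chr13:101768218-101768467 for Pik3r1 and chr8:70776713-70776962 for Pik3r2, all on the minus strand, and chr3:52268087-52268336 for Foxo1 on the plus strand.
Irs1: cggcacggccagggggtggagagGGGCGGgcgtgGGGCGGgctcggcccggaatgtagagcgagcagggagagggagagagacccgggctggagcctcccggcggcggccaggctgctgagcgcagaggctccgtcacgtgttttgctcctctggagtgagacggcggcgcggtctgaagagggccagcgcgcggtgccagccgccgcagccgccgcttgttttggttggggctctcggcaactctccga
Pik3r1: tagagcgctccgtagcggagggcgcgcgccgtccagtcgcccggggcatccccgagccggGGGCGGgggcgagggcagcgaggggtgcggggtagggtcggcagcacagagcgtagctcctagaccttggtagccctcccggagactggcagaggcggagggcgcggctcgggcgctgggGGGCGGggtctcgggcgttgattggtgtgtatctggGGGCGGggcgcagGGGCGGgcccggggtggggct
Pik3r2: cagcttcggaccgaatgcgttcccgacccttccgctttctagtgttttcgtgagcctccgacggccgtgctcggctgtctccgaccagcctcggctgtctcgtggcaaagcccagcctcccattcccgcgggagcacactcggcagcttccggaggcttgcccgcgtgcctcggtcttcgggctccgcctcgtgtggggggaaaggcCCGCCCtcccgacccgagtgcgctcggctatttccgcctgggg
Foxo1: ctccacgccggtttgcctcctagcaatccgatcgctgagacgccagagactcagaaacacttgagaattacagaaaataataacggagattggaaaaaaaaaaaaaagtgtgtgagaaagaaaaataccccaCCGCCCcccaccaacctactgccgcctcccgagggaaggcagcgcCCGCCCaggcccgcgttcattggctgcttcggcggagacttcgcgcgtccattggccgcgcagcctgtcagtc
The Sp1 core was present in 8 of the 9 windows, against 32.7% of 32851 RefSeq promoter windows of the same length. It occurred 5 times before Foxo3, 4 times in the Pik3r1 window shown and 1 time before Pik3r2, so windows of genes that were lower and higher on TWD both held it. The other Pik3r1 window, chr13:101692631-101692880, held it 0 times. The Foxo core, GTAAACA searched on both strands, cannot overlap the Sp1 core by more than its end letters. It was in 0 of the 9 windows and in 3.17% of all windows.

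The first comparison asks whether TWD changed the expression of these genes irrespective of genotype. Of the 9 genes, 4 were lower on TWD at an adjusted p below 0.05 (Insr, Irs1, Pik3r1 and Foxo1) and 1 was higher (Pik3r2), in a limma fit of genotype, diet and batch with Benjamini-Hochberg adjustment over all genes. The background was large: 29.4% of all 15897 genes passed the same test, 13.4% as lower and 16% as higher, and at an unadjusted p below 0.05 all 9 genes and 44.1% of all genes passed. The differences of Igf1r, Irs2, Pik3ca and Foxo3 were below 0 and missed the threshold. The median difference over the 9 genes was -0.30, beside -0.001 over all genes. Without the 2 mice least like the others, 0 of the 9 genes passed, beside 0.00629% of all genes, while 6 of the 9 and 5262 of all genes had an unadjusted p below 0.05. In this bulk tissue, fewer cells that express a gene and less RNA per cell cannot be told apart.

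**Figure D1:**
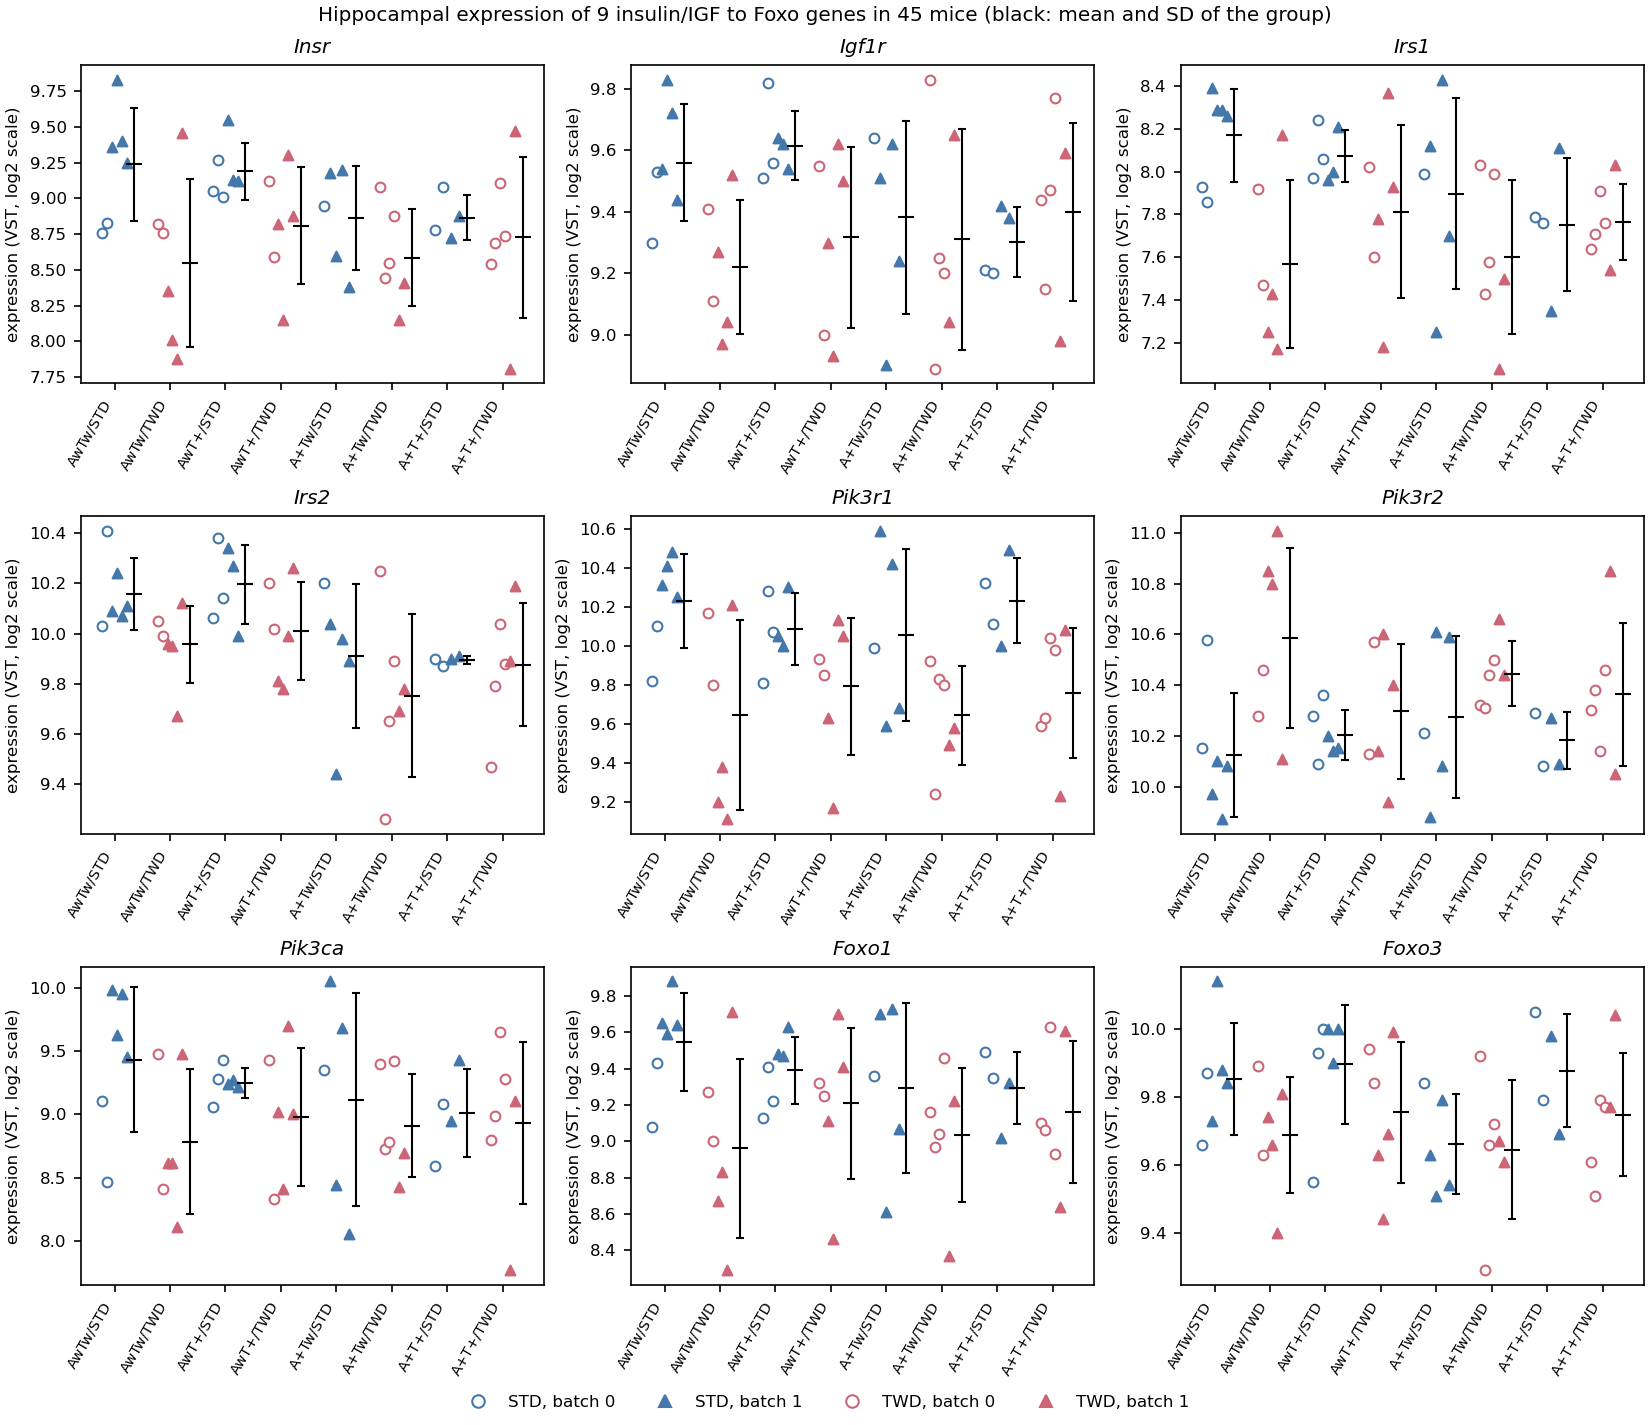
Expression value (VST, log2 scale) of each of the 9 genes in each of the 45 mice, by genotype and diet, with open circles for batch 0, filled triangles for batch 1 and black bars for the mean and SD of each group. Insr, Irs1, Pik3r1 and Foxo1 lie lower on TWD and Pik3r2 lies higher, with overlap between diets in every gene, and in these 5 genes the TWD mice of batch 1 spread most widely.

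Insr encodes the insulin receptor. Its expression ran from 8.38 through a median of 9.08 to 9.83 in the 21 STD mice and from 7.81 through 8.71 to 9.47 in the 24 TWD mice. The diets overlapped, but 6 TWD mice lay below every STD mouse and 19 of the 24 lay below the STD median. The difference was -0.39 ± 0.12 (SE), adjusted p = 0.0197. The STD and TWD means were 8.97 ± 0.17 (SD, n = 8) and 8.78 ± 0.23 (n = 12) in batch 0, and 9.12 ± 0.40 (n = 13) and 8.56 ± 0.61 (n = 12) in batch 1. The difference was thus -0.16 within batch 0 (adjusted p = 0.82, limma) and -0.63 within batch 1 (adjusted p = 0.0192). Without the 2 mice least like the others it was -0.31 (adjusted p = 0.0692).

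Igf1r encodes the receptor for the insulin-like growth factors and is the closest relative of the insulin receptor in this set. Its expression ran from 8.90 through a median of 9.53 to 9.83 on STD and from 8.89 through 9.28 to 9.83 on TWD, so both diets covered almost the same range, although 18 of the 24 TWD mice lay below the STD median. The difference was -0.17 ± 0.079 (SE) and missed the threshold (adjusted p = 0.0871, limma). It was -0.12 within batch 0 and -0.23 within batch 1, with adjusted p of 0.837 and 0.0818. Leaving out A+Tw/TWD replicate 1 or A+Tw/STD replicate 2 brought it past the threshold, with adjusted p of 0.0441 and 0.0368, and without the 2 mice least like the others it was -0.14 (adjusted p = 0.206).

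Irs1 encodes the adaptor that couples the activated receptors to PI3K. Its expression ran from 7.25 through a median of 8.00 to 8.43 on STD and from 7.08 through 7.67 to 8.37 on TWD, with 3 TWD mice below every STD mouse. The difference was -0.31 ± 0.10 (SE), adjusted p = 0.022. It was -0.17 within batch 0 (adjusted p = 0.82, limma) and -0.45 within batch 1 (adjusted p = 0.0282), and -0.27 without the 2 mice least like the others (adjusted p = 0.0666).

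Irs2, the second widely expressed adaptor of the family, had a smaller difference, of like size in both batches. Expression ran from 9.44 through a median of 10.06 to 10.41 on STD and from 9.26 through 9.92 to 10.26 on TWD. The TWD mice lay slightly lower as a group, 19 of 24 of them below the STD median, with 1 below every STD mouse. The difference was -0.15 ± 0.063 (SE, adjusted p = 0.0609), with -0.18 in batch 0 and -0.14 in batch 1, and -0.14 (adjusted p = 0.122) without the 2 mice least like the others. It passed the threshold when quantile normalization was applied (adjusted p = 0.0424) or the choroid plexus level was a covariate (adjusted p = 0.0278). It also passed with 1 mouse left out in 6 of 45 cases, with adjusted p from 0.0228 without A+Tw/STD replicate 2 to 0.0471 without A+T+/TWD replicate 4, the others being A+Tw/TWD replicate 1, AwT+/TWD replicate 5, A+T+/TWD replicate 5 and AwTw/TWD replicate 5.

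Pik3r1 encodes the regulatory subunits of the p85 alpha family, which stabilise the catalytic subunit and dock it on Irs proteins. Its expression ran from 9.59 through a median of 10.11 to 10.59 on STD and from 9.11 through 9.80 to 10.21 on TWD. It was the gene with the least overlap: 9 TWD mice lay below every STD mouse, and 21 of the 24 lay below the STD median. The difference of -0.44 ± 0.10 (SE) was the largest of the 9 genes and had their smallest adjusted p, 0.0157. The STD and TWD means were 10.06 ± 0.19 (SD, n = 8) and 9.82 ± 0.24 (n = 12) in batch 0, and 10.20 ± 0.31 (n = 13) and 9.60 ± 0.41 (n = 12) in batch 1. In batch 1 all 12 TWD mice, and in batch 0 11 of the 12, lay below the median of the STD mice of that batch. The difference was -0.22 within batch 0 (adjusted p = 0.82, limma) and -0.62 within batch 1 (adjusted p = 0.0176). Without the 2 mice least like the others it was -0.38 and missed the threshold (adjusted p = 0.0555).

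Pik3r2 encodes p85 beta, the other widely expressed regulatory subunit, and was the only gene of the 9 with a higher mean on TWD over all mice. Its values ran from 9.87 through a median of 10.15 to 10.61 on STD and from 9.94 through 10.42 to 11.01 on TWD. There were 5 TWD mice above every STD mouse, all of them in batch 1. The difference was 0.23 ± 0.075 (SE), adjusted p = 0.0238. It was 0.11 within batch 0 (adjusted p = 0.82, limma) and 0.36 within batch 1 (adjusted p = 0.0248), and 0.18 without the 2 mice least like the others (adjusted p = 0.0828).

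Pik3ca encodes the catalytic subunit p110 alpha. Values ran from 8.06 through a median of 9.27 to 10.05 on STD and from 7.77 through 8.90 to 9.70 on TWD, the widest range among the 9 genes, with nearly complete overlap. The difference over all mice was -0.32 ± 0.16 (SE) and missed the threshold (adjusted p = 0.109). The batches parted most in this gene. The STD and TWD means were 9.04 ± 0.35 (SD, n = 8) and 9.06 ± 0.44 (n = 12) in batch 0, and 9.34 ± 0.59 (n = 13) and 8.75 ± 0.55 (n = 12) in batch 1. The fitted difference was -0.01 in batch 0 (adjusted p = 0.993, limma) and -0.64 in batch 1 (adjusted p = 0.0265). Leaving out A+Tw/STD replicate 5 brought the difference over all mice past the threshold (adjusted p = 0.0488), and without the 2 mice least like the others it was -0.22 (adjusted p = 0.297).

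Foxo1 and Foxo3 encode the transcription factors that Akt holds out of the nucleus. Foxo1 expression ran from 8.61 through a median of 9.43 to 9.88 on STD and from 8.29 through 9.11 to 9.71 on TWD, with 3 TWD mice below every STD mouse. The difference was -0.30 ± 0.11 (SE), adjusted p = 0.0346, with -0.13 in batch 0 (adjusted p = 0.82, limma) and -0.48 in batch 1 (adjusted p = 0.0337). Of the 5 calls this was the one that single mice decided. It missed the threshold in 11 of 45 cases with 1 mouse left out, with the highest adjusted p at 0.0682 without AwTw/TWD replicate 3 and 0.0674 without AwT+/TWD replicate 3. The other 9 were A+T+/TWD replicate 1, A+Tw/TWD replicate 2, AwTw/TWD replicates 1 and 2, AwTw/STD replicates 1, 4 and 5, and A+Tw/STD replicates 1 and 3, with adjusted p from 0.0502 to 0.059. Without both of the mice least like the others the difference was -0.23 (adjusted p = 0.112).

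Foxo3 expression ran from 9.51 through a median of 9.84 to 10.14 on STD and from 9.29 through 9.70 to 10.04 on TWD. Its difference was the smallest of the 9 genes, -0.12 ± 0.055 (SE, adjusted p = 0.0926), although 19 of 24 TWD mice lay below the STD median. It was -0.10 in batch 0 and -0.15 in batch 1, and -0.10 (adjusted p = 0.191) without the 2 mice least like the others. It passed the threshold without AwT+/STD replicate 1 (adjusted p = 0.0473) and with the choroid plexus level as a covariate (adjusted p = 0.0354).

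Taken by batch, the fitted difference of all 9 genes had the same sign in both batches as over all mice. The sizes differed, and Pik3ca was near 0 in batch 0, at -0.01. Within batch 0, 0 of the 9 genes passed the limma test, with differences between -0.22 and 0.11, and 0% of all genes passed. At an unadjusted p below 0.05, 882 of all genes and 0 of the 9 passed there, with 0.0555 for Pik3r1 as the lowest. Within batch 1, 6 of the 9 passed (Insr, Irs1, Pik3r1, Pik3ca and Foxo1 lower, Pik3r2 higher), beside 40.9% of all genes, 20.6% as lower and 20.3% as higher. The difference between the batches in the diet effect was tested with a diet-by-batch term, which passed for 0 of the 9 genes (adjusted p from 0.152 for Pik3ca to 0.833 for Irs2) and for 0% of all genes. At an unadjusted p below 0.05 it passed for 3 of the 9 (Pik3ca, Pik3r1 and Insr) and for 28% of all genes. The difference between batches was -0.68 for Pik3ca, with a 95% interval from -1.31 to -0.06, and 0.05 for Irs2, with an interval from -0.22 to 0.31.

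**Figure D2:**
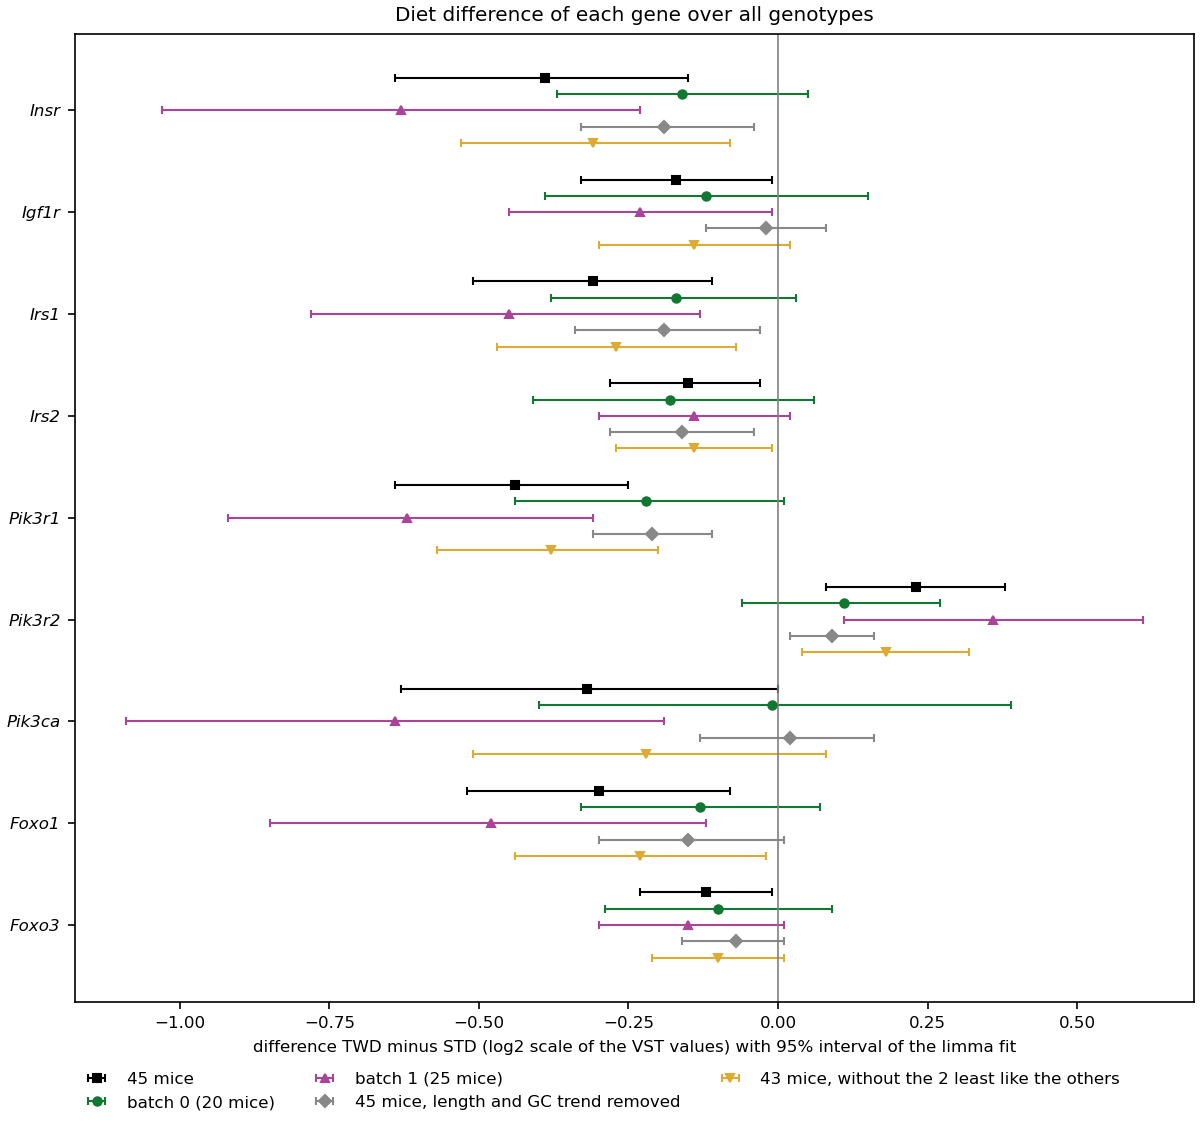
Difference between TWD and STD (log2 scale, with the 95% interval of the limma fit) of each gene over all 45 mice, within batch 0, within batch 1, over all mice with the length and GC trend of each mouse removed, and without the 2 mice least like the others. Batch 1 lies farther from 0 than batch 0 for every gene but Irs2, and Pik3ca comes to 0.02 once the trend is removed.

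Expression differences on TWD ran with transcript length and GC content over the whole table. The median difference went from 0.15 in the decile of genes with the shortest transcripts to -0.18 in the decile with the longest, and from -0.27 in the decile with the lowest GC content to 0.15 in the decile with the highest. Of the genes described here, most stand at the long end of the first scale and are spread over the second. Insr, Igf1r, Irs1, Pik3r1, Pik3ca, Foxo1 and Foxo3 were in the decile of longest transcripts, of which 35.1% passed as lower and 2.48% as higher, and Irs2 was in the decile next to it. By GC content Pik3ca was in the lowest decile and Pik3r1, Insr, Igf1r, Foxo1, Irs1 and Foxo3 lay in deciles 3 to 7. Irs2, whose difference was below 0, was in decile 9, of which 31% passed as higher and 1.15% as lower. Pik3r2, the gene that was higher, had a transcript of middling length but a GC content of 61.4%, in the highest decile, of which 32.7% passed as higher and 0.382% as lower.

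After a smooth trend over length and GC content was removed from each mouse, 13.4% of all genes passed and 1 of the 9 did. That gene was Pik3r1, at -0.21 ± 0.050 (SE, adjusted p = 0.0206). Insr (-0.19, adjusted p = 0.0742), Irs1 (-0.19, adjusted p = 0.0881), Irs2 (-0.16, adjusted p = 0.0585) and Pik3r2 (0.09, adjusted p = 0.0598) kept their sign and missed the threshold in this limma fit. Foxo1 was at -0.15 (adjusted p = 0.18) and Foxo3 at -0.07 (adjusted p = 0.228). Igf1r came to -0.02, and the sign of Pik3ca, the gene of lowest GC content among the 9 at 41.2%, turned to 0.02. Irs2 was the only one of the 9 whose difference did not shrink.

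**Figure D3:**
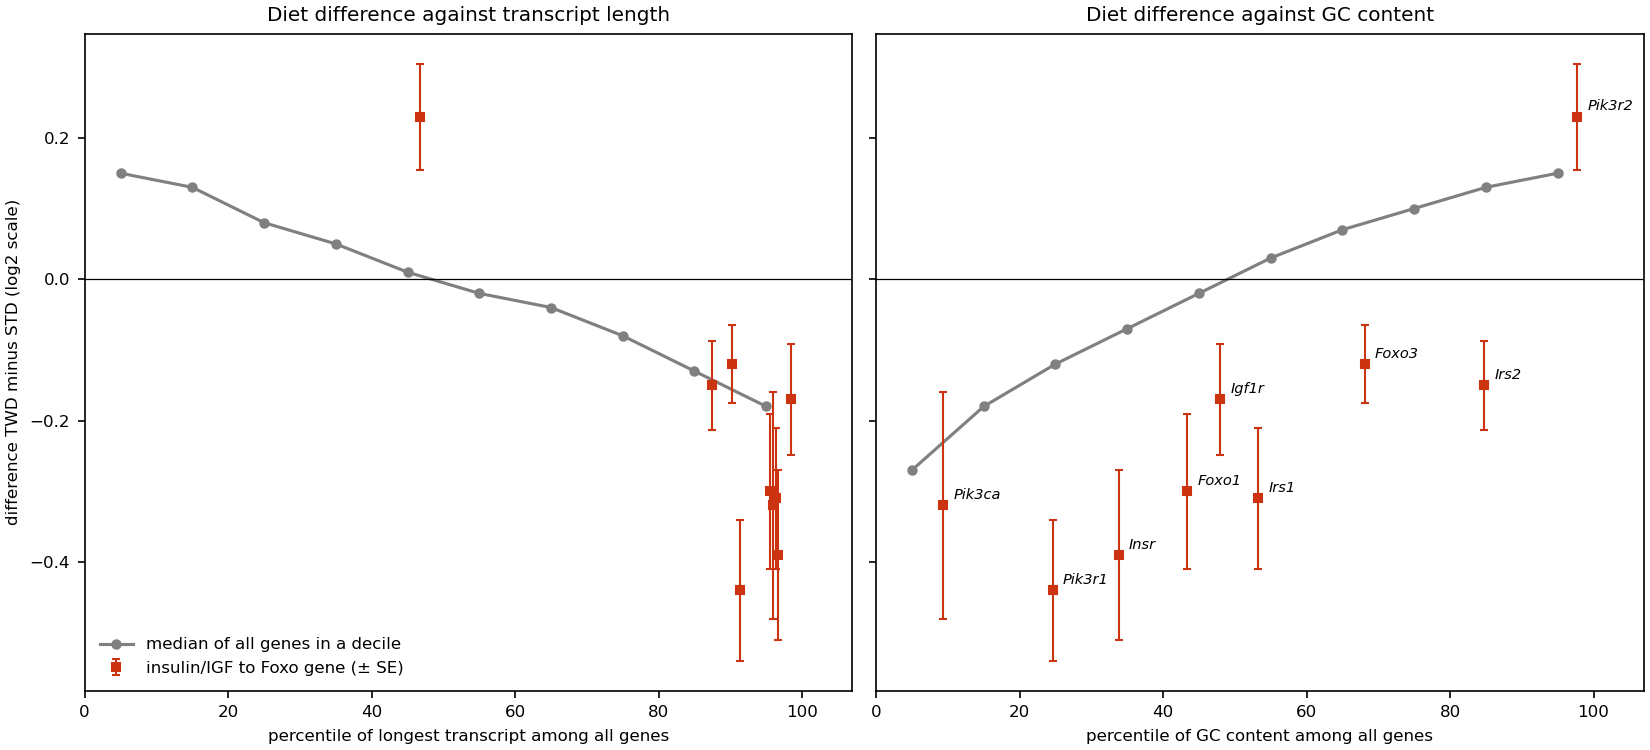
Difference between TWD and STD (log2 scale, ± SE) of the 9 genes (squares) against the percentile of their longest transcript (left) and of their GC content (right) among all genes, with the median of all genes in each decile (line). The median of all genes falls with length and climbs with GC content, 8 of the 9 genes are at the long end, and Pik3r2 is at the GC-rich end.

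The second comparison takes the diets within each genotype. In AwTw mice, 3 of the 9 genes passed the limma test, beside 9.35% of all genes (3.34% as lower and 6.01% as higher), and at an unadjusted p below 0.05 7 of the 9 and 40.2% of all genes. Irs1 was lower by -0.60 ± 0.18 (SE) and Pik3r1 by -0.58 ± 0.19, and Pik3r2 was higher by 0.46 ± 0.14, each with an adjusted p of 0.0498. Insr (-0.69, adjusted p = 0.0501) and Foxo1 (-0.58, adjusted p = 0.0532) lay on the other side of the threshold. In each of the 3 transgenic genotypes 0 of the 9 genes and 0% of all genes passed, and at an unadjusted p below 0.05 the share of all genes was 7.44% for AwT+, 4.43% for A+Tw and 2.57% for A+T+.

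Irs1 in AwTw mice ran from 7.86 through 8.27 to 8.39 on STD and from 7.17 through 7.45 to 8.17 on TWD. In batch 1 the 4 STD mice had 8.26, 8.29, 8.29 and 8.39 and the 4 TWD mice had 7.17, 7.25, 7.43 and 8.17, so the diets did not overlap there. Within AwTw in batch 1 alone, 3 of the 9 genes passed the limma test as lower and 1 as higher. Beside this, 10.7% of all genes passed there as lower and 14.3% as higher. How many of all genes had no overlap there was not counted, for Irs1 or for the genes below. In batch 0 the STD mice had 7.86 and 7.93 and the TWD mice 7.47 and 7.92, which overlapped.

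Pik3r1 in AwTw mice of batch 1 had 10.25, 10.31, 10.41 and 10.48 on STD and 9.11, 9.20, 9.38 and 10.21 on TWD, again without overlap. In batch 0 the STD mice had 9.82 and 10.10 and the TWD mice 9.80 and 10.17, so the TWD mice enclosed the STD mice. The difference within AwTw was -0.89 in batch 1 and 0.03 in batch 0.

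Pik3r2 mirrored this in batch 1, where the STD mice had 9.87, 9.97, 10.08 and 10.10 and the TWD mice 10.11, 10.80, 10.85 and 11.01. In batch 0 the STD mice had 10.15 and 10.58 and the TWD mice 10.28 and 10.46. In all of these genes 3 of the 4 TWD mice of batch 1 stood far from the STD mice and AwTw/TWD replicate 5 stood next to them. Without that mouse 7 of the 9 genes passed within AwTw (all but Irs2 and Foxo3), beside 6072 of all genes, and in 32 of the 45 cases with 1 mouse left out 0 of the 9 genes passed. Without the 2 mice least like the others 0 passed as well, with adjusted p of 0.148 for Irs1, Pik3r1 and Pik3r2.

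In the transgenic genotypes the differences were smaller and the groups overlapped in most genes. Pik3r1 in A+T+ mice had 10.00, 10.11, 10.32 and 10.49 on STD and ran from 9.23 through 9.81 to 10.08 on TWD, a difference of -0.48 ± 0.21 (SE, adjusted p = 0.998). In A+Tw mice it had 9.59, 9.68, 9.99, 10.42 and 10.59 on STD and ran from 9.24 through 9.69 to 9.92 on TWD (-0.44 ± 0.20, adjusted p = 0.706, limma). Pik3r1 was the only one of the 9 genes with an unadjusted p below 0.05 in these genotypes, at 0.0352 in A+Tw and 0.0282 in A+T+. Irs1 in A+T+ mice had 7.35, 7.76, 7.79 and 8.11 on STD and ran from 7.54 through 7.73 to 8.03 on TWD, with a difference of 0.01. Igf1r in A+T+ mice was at 0.10, with 9.20, 9.21, 9.38 and 9.42 on STD and from 8.98 through 9.46 to 9.77 on TWD.

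Whether the diet effect differed between genotypes was tested by interaction terms against AwTw. These passed for 0 of the 9 genes and 0% of all genes in each of the 3 transgenic genotypes, with adjusted p of the 9 genes from 0.56 to 0.977. At an unadjusted p below 0.05 the AwT+ term passed for 4.02% of all genes, the A+Tw term for 2.21% and the A+T+ term for 6.3%, and of the 9 genes Irs1 passed in the A+T+ term. The median of the 9 differences in effect was 0.30 for AwT+, 0.27 for A+Tw and 0.44 for A+T+. The largest was that of Irs1 in A+T+, 0.61 with a 95% interval from 0.05 to 1.17 (adjusted p = 0.56, limma), so the effect in AwTw was not shown to differ from that in the other genotypes.

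**Figure D4:**
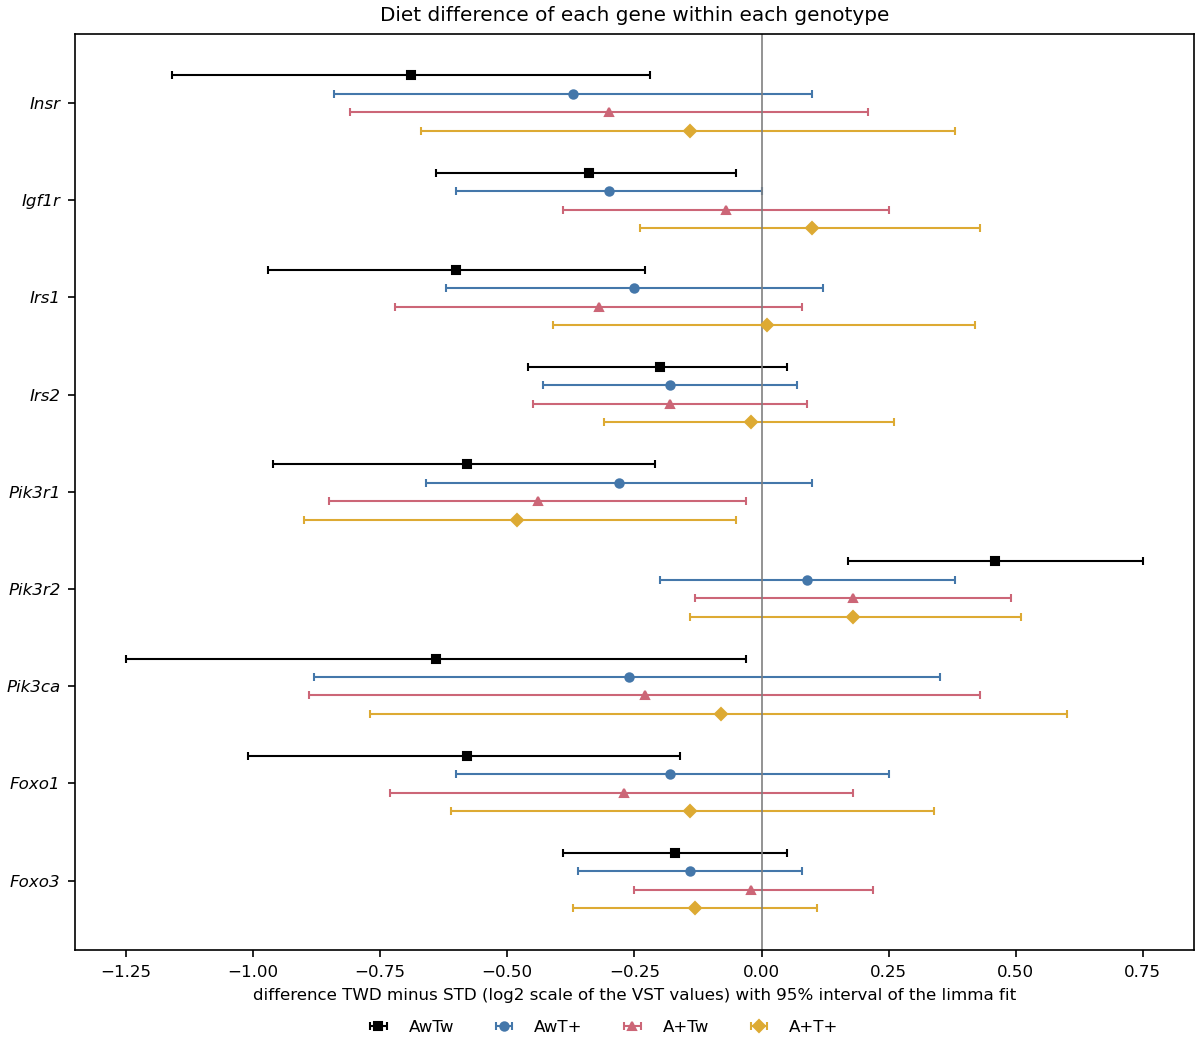
Difference between TWD and STD (log2 scale, with the 95% interval of the limma fit) of each gene within each of the 4 genotypes. The AwTw values lie farthest from 0 for all 9 genes, and the intervals of the genotypes overlap for every gene. Insr, Irs2, Pik3r1, Pik3ca, Foxo1 and Foxo3 are below 0 in all 4 genotypes.

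The third comparison sets each transgenic genotype against AwTw on the same diet. In all 6 contrasts 0 of the 9 genes passed, with adjusted p from 0.336 to 1. Beside this, 0% of all genes passed for AwT+ on either diet, 0.925% on STD and 0.824% on TWD for A+Tw, and 1.32% on STD and 0.73% on TWD for A+T+. At an unadjusted p below 0.05, Irs1 passed for A+T+ on STD and Pik3r2 for AwT+ on TWD, beside 2.39% (AwT+), 5.66% (A+Tw) and 14.3% (A+T+) of all genes on STD, and 3.04%, 5.2% and 7.76% on TWD. On STD the medians of the 9 differences were -0.06 for AwT+, -0.24 for A+Tw and -0.26 for A+T+, and on TWD they were 0.15, 0.02 and 0.13. These contrasts share the AwTw mice of each diet. Irs2 in A+T+ mice on STD had 9.87, 9.90, 9.90 and 9.91, all below the lowest AwTw mouse on STD at 10.03. The difference was -0.28 ± 0.14 (SE, adjusted p = 0.355, unadjusted p = 0.0544, limma). How many of all genes had no overlap between these groups was not counted. Insr was -0.37 in A+Tw and -0.38 in A+T+ on STD, and 0.02 and 0.17 on TWD.

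Across mice, with the means of group and batch removed, the 9 genes varied together. Of their 36 pairs, 34 had a Pearson correlation with an adjusted p below 0.05 in a permutation test over the 45 mice, and 34 had a Spearman correlation that passed. The share of pairs among all genes, or among genes of like length, that correlate this strongly was not computed. The correlation is thus not shown to be particular to these 9 genes. The 28 pairs without Pik3r2 had r from 0.326 to 0.871 with a median of 0.675, and the 8 pairs with Pik3r2 had r from -0.847 to -0.241. The highest was that of Irs1 and Foxo1, r = 0.871 and rho = 0.848 (adjusted permutation p of 1.8e-05 and 2e-05, from the smallest p these permutations can give), with r = 0.838 without the 2 farthest mice, 0.696 in batch 0 and 0.917 in batch 1. The lowest was that of Pik3r2 and Pik3ca, r = -0.847 and rho = -0.795 (the same adjusted permutation p), with -0.807 without the 2 farthest mice, -0.700 in batch 0 and -0.918 in batch 1. Pik3r1 and Pik3r2, the paired regulatory subunits, had r = -0.756 and rho = -0.710, with -0.718 without the 2 farthest mice, but -0.349 in batch 0 and -0.906 in batch 1.

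The first principal component of these residuals over all genes held 41.3% of their variance. After it was removed, 9 of the 36 pairs passed, 8 of them positive. The highest was then Irs2 and Foxo3, r = 0.689 (adjusted permutation p = 0.00036), which had been at r = 0.736 and rho = 0.696, with 0.672 without the 2 farthest mice, 0.760 in batch 0 and 0.711 in batch 1. Pik3r1 and Foxo3 followed at 0.597 and Igf1r and Irs2 at 0.550, each with an adjusted permutation p of 0.0006. The 8 pairs with Pik3r2 came to lie between -0.163 and 0.303, and 0 of them passed. Pik3ca and Foxo1, at r = 0.726 before, turned to -0.494 (adjusted permutation p = 0.00405).

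**Figure D5:**
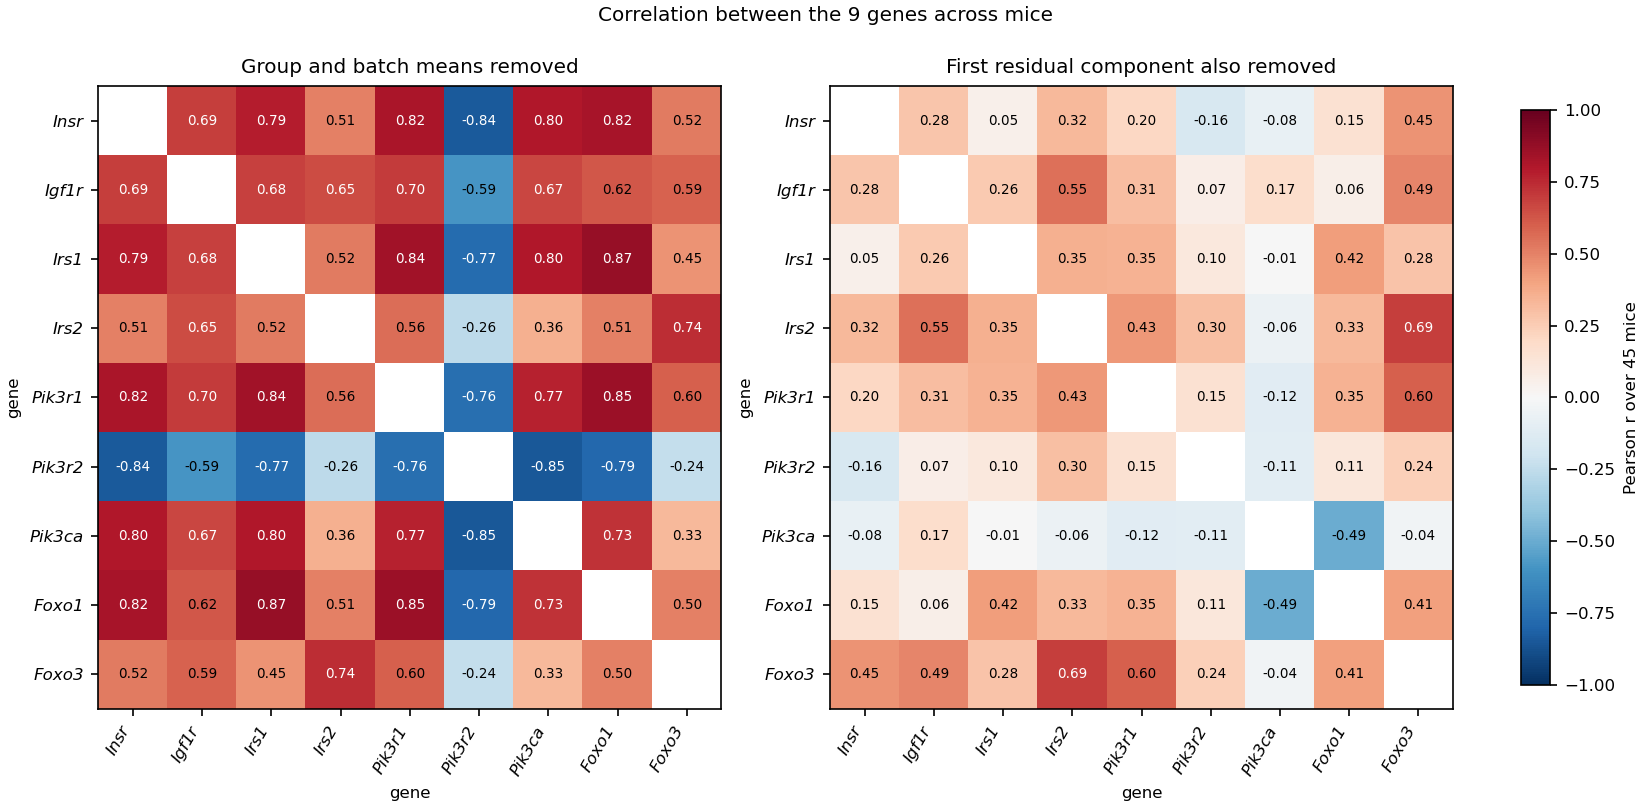
Pearson correlation of each pair of the 9 genes over 45 mice, with the means of group and batch removed (left) and with the leading residual component of all genes also removed (right). Left, Pik3r2 runs against the other 8 genes, which correlate positively with each other, and right, most correlations shrink while that of Irs2 and Foxo3 stays at 0.689.

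The genes of the table most like each of the 9 across mice, by the same residuals and as a description, were mostly long genes. For Insr they were Slc24a2, Slc2a13 and Samd8 (r = 0.912, 0.910 and 0.909), and for Igf1r Gfpt1, Ppfibp1 and E330009J07Rik (0.835, 0.814 and 0.811). For Irs1 they were Zfp712, Tmem47 and Atl3 (r = 0.910, 0.910 and 0.905), and for Irs2 Lmtk2, Wdfy3 and Asap2 (0.901, 0.886 and 0.881). Pik3r1 was closest to Xpr1, Mapk9 and Pcdh17 (r = 0.918, 0.916 and 0.915) and Pik3ca to Zfp871, Mindy2 and Tmem170b (0.935, 0.934 and 0.929). Pik3r2 was closest to shorter genes, Btbd2, Gnl1 and Sf3b4 (r = 0.945, 0.942 and 0.929), with longest transcripts of 3026, 2848 and 1915 bases. Foxo1 was closest to Slc4a4, Cpd and Tmed8 (r = 0.927, 0.920 and 0.918), and Foxo3 to Dgki, Dcaf7 and Prdm2 (0.833, 0.825 and 0.821).

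The genes around the 9 in the pathway were taken from lists, each read against the same background of 16% of all genes higher and 13.4% lower on TWD. Of their 96 genes, 7 rose and 22 fell over all mice. In the same limma fit without the 2 mice least like the others, and in batch 0 alone, 0 of the 96 passed (33 and 7 at an unadjusted p below 0.05), while 21 passed as higher and 19 as lower in batch 1 alone. With the length and GC trend removed, 5 passed as higher and 6 as lower. Of 10 ligands, binding proteins and related genes in the table, 1 rose and 2 fell, with a median difference of 0.10. Igfbp6, which binds insulin-like growth factors, rose by 0.42 ± 0.13 (SE, adjusted p = 0.0184). Igf2r, the clearance receptor for Igf2, was lower (-0.14, adjusted p = 0.0376), and so was Ide, the insulin-degrading enzyme (-0.23, adjusted p = 0.0368). Igf1 (0.06, adjusted p = 0.508) and Igf2 (0.13, adjusted p = 0.767) did not pass. With the trend removed Igf1 alone of the 10 passed (0.43, adjusted p = 0.0479, limma), and Igfbp6 (0.19), Igf2r (-0.03) and Ide (-0.01) missed the threshold (adjusted p = 0.0881, 0.579 and 0.918, limma). Igf2 differed in sign between batches, at -0.66 in batch 0 and 0.71 in batch 1.

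Of 18 further adaptors and brakes at the receptor, 0 rose and 3 fell (median -0.09). They were Sos1, the exchange factor that leads from the receptor to Ras (-0.46 ± 0.13, adjusted p = 0.0159), Gab1, a docking protein (-0.21, adjusted p = 0.019), and Grb10, an inhibitory adaptor of both receptors (-0.29, adjusted p = 0.0192, with -0.30 in batch 0 and -0.31 in batch 1). With the trend removed 1 of the 18 passed as higher and 4 as lower. All 3 of these genes were still among the lower, Sos1 at -0.12, Gab1 at -0.19 and Grb10 at -0.20. Of 12 other PI3K genes, 0 rose and 2 fell (median -0.05): Pik3cb, the p110 beta catalytic subunit (-0.27 ± 0.073, adjusted p = 0.0158), and Pik3r3, the regulatory subunit p55 gamma (-0.37 ± 0.11, adjusted p = 0.0189). With the trend removed 0 of the 12 passed, with Pik3cb at -0.07 and Pik3r3 at -0.16 (adjusted p = 0.218 and 0.112, limma). Over all mice Pik3r2 was thus the only regulatory or catalytic subunit among the 9 genes and this list that passed as higher.

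Of 10 lipid phosphatases, Akt phosphatases and Pdk1, 1 rose and 4 fell (median -0.09). Among those that fell were Phlpp1 (-0.29, adjusted p = 0.0182) and Phlpp2 (-0.25, adjusted p = 0.0185), phosphatases of Akt. Pdpk1, the kinase that activates Akt, was lower as well (-0.46, adjusted p = 0.0407), while Inpp5k, an inositol phosphatase, was higher (0.17, adjusted p = 0.0197). Genes that promote and genes that limit the signal were both among those that fell, and with the trend removed Phlpp1 alone of the 10 passed (-0.28, adjusted p = 0.026).

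Of 8 Akt, Gsk3 and Sgk kinases, 0 rose and 2 fell (median 0.05). Gsk3b was among those that fell (-0.45 ± 0.13, adjusted p = 0.0159), while Akt1 was at 0.03, Akt2 at 0.06 and Gsk3a at 0.19 (adjusted p = 0.731, 0.373 and 0.0505, limma). With the trend removed 0 of the 8 passed and Gsk3b was at -0.23 (adjusted p = 0.0575). Of 14 Foxo partners, 1 rose and 5 fell (median -0.15). Prmt1, an arginine methyltransferase that acts on Foxo1, rose (0.27, adjusted p = 0.0159), and the falls included the acetyltransferase Ep300 (-0.34, adjusted p = 0.0209), the deubiquitinase Usp7 (-0.35, adjusted p = 0.0214) and the methyltransferase Setd7 (-0.27, adjusted p = 0.0257). With the trend removed Prmt1 still passed (0.13) and none of the 14 passed as lower, with Ep300 at -0.24, Usp7 at -0.18 and Setd7 at -0.11 (adjusted p = 0.0508, 0.0951 and 0.143, limma).

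Of 24 genes known as Foxo targets, 4 rose and 4 fell (median 0.09). Those with the smallest adjusted p among the higher genes were the cell cycle inhibitor Cdkn1a (0.39 ± 0.11, adjusted p = 0.0164), the stress gene Gadd45b (0.26, adjusted p = 0.02) and the autophagy gene Gabarapl1 (0.16, adjusted p = 0.0253). Among the lower genes they were Sesn3 (-0.50 ± 0.15, adjusted p = 0.018), a sestrin, Rictor (-0.42, adjusted p = 0.0304), a part of mTORC2, and Bcl2l11 (-0.23, adjusted p = 0.0306), a promoter of cell death. The targets thus moved in both directions, in a share close to the background in each, and with the trend removed 2 passed as higher and 1 as lower.

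Of 85 markers of cell types, 20 passed as higher on TWD and 9 as lower over all mice. The counts below are to be read beside the 16% of all genes that passed as higher and the 13.4% as lower. In the same limma fit without the 2 mice least like the others, and in batch 0 alone, 0 of the 85 passed (32 and 17 at an unadjusted p below 0.05). With the trend removed 12 passed as higher and 3 as lower, beside 13.4% of all genes in both directions together. Of 10 microglial markers 5 passed as higher and 1 as lower, with a median difference of 0.21 and a summed log2 level from 12.59 to 14.29 on STD and from 12.78 to 14.16 on TWD. Of 10 oligodendrocyte markers 5 passed as higher and 1 as lower (median 0.18), with summed levels from 16.09 to 16.67 on STD and from 16.01 to 16.98 on TWD. With the trend removed 4 microglial and 1 oligodendrocyte marker passed as higher and 0 as lower. Neuronal markers split into 3 higher and 3 lower of 10 (median -0.03, summed levels from 17.24 to 17.84 on STD and from 17.12 to 17.71 on TWD), and astrocyte markers into 2 higher and 3 lower of 10 (median -0.06, summed levels from 15.74 to 16.25 on STD and from 15.62 to 16.31 on TWD). Of 10 endothelial markers 2 passed as higher and 0 as lower (median -0.00, summed levels from 11.45 to 12.07 on STD and from 11.27 to 12.04 on TWD), of 4 oligodendrocyte precursor markers 2 as higher and 1 as lower, and of 7 hippocampal markers 1 as higher and 0 as lower.

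Of 12 choroid plexus markers 0 passed, but their median difference was -0.56 over all mice, -1.44 in batch 0 and 0.27 in batch 1. With the choroid plexus level as a covariate the 5 calls among the 9 genes all stood and Irs2 and Foxo3 also passed, beside 33% of all genes. Of 8 meningeal and 4 blood markers 0 passed. The table holds only genes with a mean count above 10, so no marker in it could be at 0. The lowest mean expression of a marker in the table was 6.14, that of a blood marker. The part of cell composition in the differences of the 9 genes beyond the choroid plexus was not tested.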

How the data were processed

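RNA of the hippocampus of 45 mice was sequenced from poly(A)-selected, stranded libraries. Per the labels and the study's methods, the authors checked reads with FastQC 0.11.8, trimmed them with Trimmomatic 0.38, discarded reads that matched rRNA or mitochondrial sequence in Bowtie2 2.2.3 and quantified mm10 transcripts with kallisto 0.44.0. The authors summed transcripts per gene, kept genes with a mean count above 10, applied the DESeq2 1.22.2 variance-stabilizing transformation and removed batch with limma 3.38.3, so the deposited values are on a log2-like scale. The batch step equalised the batch means of every gene without regard to diet, so batch stayed in each fit.

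Groups came from the labels, which mark each mouse as a separate animal. The tests were made in limma 3.58.1 under R 4.3.3 (empirical Bayes with a mean trend, two-sided, Benjamini-Hochberg over 15897 genes, threshold 0.05), with additive terms for genotype, diet and batch, with a fit of the 8 groups with batch, and with fits within each batch. Correlations used 100000 permutations, two-sided. Length and GC content came from GENCODE M21 for 15695 genes, and the trend removed from each mouse was a spline with 5 degrees of freedom in each. Pairs were adjusted over the 36 pairs. Of the genes in the table, 157 hold values identical to those of an earlier gene and were kept. The methods were tested on simulated data. Members and lists were chosen with earlier results of these data known. By the naming rule, all 9 genes, at most 3 genes per direction of each list by smallest adjusted p, every gene of a list that passed when these were 5 or fewer, and for each of the 9 the 3 most correlated genes are named; Igf1, Igf2, Akt1, Akt2 and Gsk3a were named after their values were seen. Some genes of the related lists are counted but not reported here by name.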

Additional observations from a re-analysis of the deposited data

Results flagged for a closer look

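In 72 checks of a single mouse far from its group (each of the 9 genes in each of the 8 groups), 2 mice stood apart, where chance gives about 1 in 20. Irs2 in AwTw/TWD replicate 3, a mouse of batch 1 that was also among the 2 least like the others, was at 9.67, 0.29 below the next mouse at 9.95. Foxo3 in AwT+/STD replicate 1, a mouse of batch 0, was at 9.55, 0.35 below the next mouse at 9.90. Without the latter mouse the diet difference of Foxo3 over all genotypes was -0.14 (adjusted p = 0.0473, limma).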

How the results depend on the processing

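No paired analysis was possible because the labels carry no replicate numbers and each mouse is a separate animal in 1 group. For diet over all genotypes, the number of the 9 genes that passed was 5, beside 4678 of all genes. It was 1 (2128 of all genes) with the length and GC trend removed, 0 (0 of all genes, 1281 at an unadjusted p below 0.05) with the first residual component as a covariate, 0 (0) in batch 0 alone, and 0 (1) without the 2 mice least like the others, an alternative added after the data were seen. The cause of these lower counts was not tested. Batch 0 alone holds fewer mice, and the median difference of the 9 genes was -0.13 there and -0.45 in batch 1 alone. The component covariate was the score of each mouse on the gene weights of that component, from values that kept the group means. This score can therefore take up part of the diet difference itself, so the loss of calls with it does not separate the 2. With 1 mouse left out, 4 to 7 of the 9 genes and 2768 to 5917 of all genes passed, with 2768 without AwTw/TWD replicate 3 and 2856 without AwT+/TWD replicate 3. In the other 8 alternatives both counts stayed within 1.5 times. Pik3ca turned to 0.02 with the trend removed and 0.12 with the component as a covariate.

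Within AwTw, 3 of the 9 genes and 1487 of all genes passed. The counts were 5 and 2490 without batch as a covariate, 5 and 2608 with the choroid plexus level, 5 and 2853 among genes above the 25th percentile of mean value, and 3982 of all genes in batch 1 alone. They were 0 and 0 with quantile normalization, the trend removed, the component as a covariate, no mean trend, batch 0 alone, without the 2 mice, or with the letters that open each mouse label as a covariate (also added later), and 0 and 1 with only the AwTw groups in the fit. With 1 mouse left out the ranges were 0 to 7 of the 9 and 0 to 6072 of all genes. Within AwTw, Pik3r1 turned to 0.03 in batch 0, and Pik3ca to 0.16 in batch 0 and 0.18 with the component. Of the 36 pairs, 34 passed, and 9 with the first component removed. Under every alternative run, 0 of the 9 genes passed in the other genotypes, in the interactions and between genotypes. With no counts, depth sets no stated limit, and values of low genes rest on few reads that are not known.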
